A study of Mus musculus with 12 samples.

Results

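The RAB GTPase genes were taken as the rows of the count table whose symbol is Rab followed by a number, with at most 1 letter and 1 further digit after it. This rule leaves out effectors such as Rab11fip1 and regulators such as Rab3gap1. It found 58 of 24062 genes, of which 46 passed the filter on low counts, among 12154 genes that passed in all. Over 7 comparisons, 27 members passed the test in at least 1, 19 passed in none, and 12 had too few counts to be tested.

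RAB proteins are small GTPases that give each membrane compartment its identity. Exchange factors (GEFs) load them with GTP on a membrane, where they recruit tethers, motors and other effectors, and GTPase-activating proteins (GAPs) switch them off. In autophagy, RABs act from the formation of the autophagosome to its fusion with the lysosome, with Rab7 the best known member at the lysosome.

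The study knocked down Birc6, which encodes the inhibitor-of-apoptosis protein BRUCE, to ask how gene expression changed in full medium (FM) and after starvation (Starv). RNA came from mouse embryonic fibroblasts (MEFs) of 2 lines, each expressing 1 retroviral hairpin: shRenilla, a control against luciferase, and shBruce, which the methods name as hairpin 1. Starvation was 2 h in medium without serum and amino acids. Each of the 4 conditions (shRenilla FM, shRenilla Starv, shBruce FM, shBruce Starv) had 3 replicates, called r1 to r3 below. With 1 line for each hairpin, other differences between the lines cannot be told apart from the knockdown. No label says that replicates were separate cultures, so p-values measure the spread between these samples, which may be technical.

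Total counts ran from 13200393 to 18510540 in 11 libraries and were 7717265 in shBruce Starv r1, which also had the most genes detected, 16350 against 14182 to 15107 in the others. Birc6 had 3273 to 5061 normalized counts in shRenilla FM, 2787 to 4759 in shRenilla Starv, 1207 to 1390 in shBruce FM and 703 to 1226 in shBruce Starv. Of 10 fibroblast markers, 8 passed the filter, with sums of 129003 to 197268 normalized counts over the libraries, although Thy1 was at or near 0 in each condition. Summed markers were 73.3 to 146 for 5 macrophage genes, 2.12 to 44.4 for 4 epithelial genes, 6.94 to 64.0 for 4 endothelial genes, 170 to 420 for 4 neuronal genes and 0 to 30.3 for 3 muscle genes. Counts also followed exon length differently in each library. The log2 deviation per doubling of exon length ran from −0.017 to 0.188 in the shRenilla libraries and from −0.217 to 0.0392 in the shBruce libraries. Normalized counts are counts scaled to a common library size. In bulk RNA, fewer cells of a type and less RNA per cell cannot be told apart.

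Most RAB genes were well expressed, and together they held 0.319% to 0.362% of all counts in each of the 12 libraries. Levels between genes are compared as mean normalized counts per kb of exon over the 12 libraries. The median over the 46 members was 240 per kb, beside 152 per kb over 12052 genes with a length. Rab5c was highest at 1650 per kb, and Rab38 was lowest at 4.62 per kb. Rab5c acts in the fusion of early endosomes, and Rab38 in the biogenesis of melanosomes and related organelles. Next in order were Rab1b (1510), Rab2a (1360) and Rab1 (1330), which act between the ER and the Golgi, Rab34 (1360), a late endosome and ciliogenesis RAB, and Rab14 (1280), which works between the trans-Golgi network and endosomes. Members for regulated secretion stood at 18.9 per kb for Rab27a, 22.3 for Rab27b, 23.7 for Rab3d, 27.9 for Rab3a and 71.2 for Rab3b. Rab30 (14.0) and Rab36 (7.25), of other roles, were lower than these. Rab7 stood at 229 per kb.

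**Figure D1:**
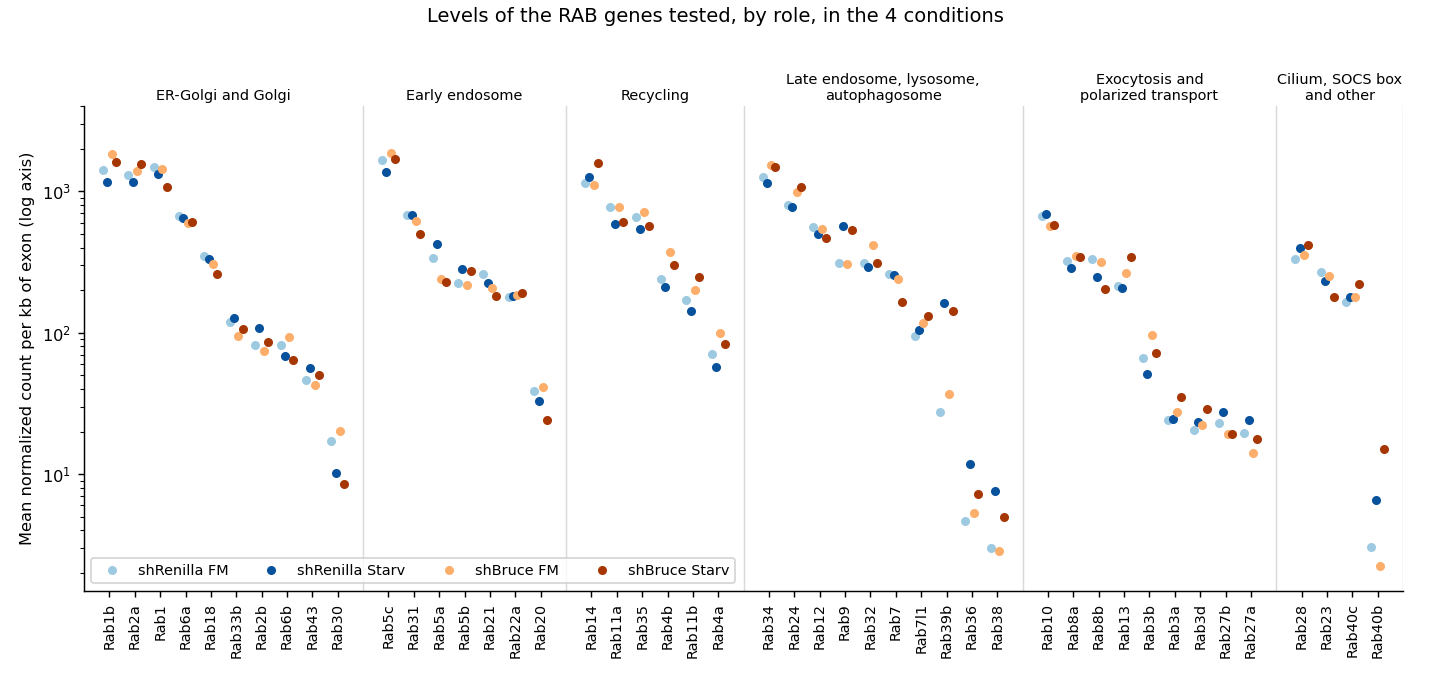
Mean normalized count per kb of exon (log axis) of the 46 RAB genes tested, with 1 point for each of the 4 conditions (3 libraries each) and genes grouped by role. The members span 4.62 to 1650 per kb over all libraries, and the conditions of Rab39b, Rab36, Rab30 and Rab40b lie farther apart than those of most members.

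The promoters of Rab39b, Rab9, Rab5a and Rab11b are shown because Rab39b and Rab9 rose under starvation in both lines and Rab5a and Rab11b differed between the lines. The bases are the 250 before the RefSeq start on GRCm38.p6, read 5′ to 3′ on the gene's strand. They lie at chrX:75578232-75578481 (minus strand) for Rab39b, at chrX:166479868-166480117 (minus strand) for Rab9, at chr17:53478984-53479233 (plus strand) for Rab5a and at chr17:33760487-33760736 (minus strand) for Rab11b. Capitals mark matches to any of 5 motifs on either strand.
Rab39b: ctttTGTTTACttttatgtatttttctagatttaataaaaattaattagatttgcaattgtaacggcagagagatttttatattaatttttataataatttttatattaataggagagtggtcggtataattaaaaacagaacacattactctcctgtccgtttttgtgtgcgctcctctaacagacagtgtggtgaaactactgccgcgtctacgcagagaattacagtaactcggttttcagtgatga
Rab9: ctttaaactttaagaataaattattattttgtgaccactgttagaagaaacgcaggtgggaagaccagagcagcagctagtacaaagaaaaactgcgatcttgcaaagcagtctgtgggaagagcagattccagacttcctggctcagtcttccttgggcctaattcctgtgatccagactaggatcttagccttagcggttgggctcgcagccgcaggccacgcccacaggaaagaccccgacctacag
Rab5a: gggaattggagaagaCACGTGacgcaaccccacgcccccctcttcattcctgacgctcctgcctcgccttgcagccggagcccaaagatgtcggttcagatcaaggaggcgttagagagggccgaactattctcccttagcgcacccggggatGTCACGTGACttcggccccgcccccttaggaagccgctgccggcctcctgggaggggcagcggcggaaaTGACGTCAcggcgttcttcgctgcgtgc
Rab11b: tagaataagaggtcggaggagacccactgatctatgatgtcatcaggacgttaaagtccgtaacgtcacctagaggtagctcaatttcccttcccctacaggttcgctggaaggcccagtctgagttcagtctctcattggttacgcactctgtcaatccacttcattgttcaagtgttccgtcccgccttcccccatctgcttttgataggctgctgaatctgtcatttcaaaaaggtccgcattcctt

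The motifs were searched in windows of 250 bases before and 50 after the start, of which 32851 stand in the table and 60 belong to 48 of the 58 members. The E-box CACGTG was found in 7.15% of all windows and in those of 6 members. The CLEAR element, a palindrome that lysosomal genes share and that holds the E-box at its centre, was found in 0.326% of all windows and in those of Rab5a, Rab21 and Rab24. Rab5a had it 97 bases before the start, Rab21 32 bases before the start and Rab24 at the start itself, and each of these also counts as an E-box match. The cAMP response element TGACGTCA was found in 1.79% of all windows and in those of Rab5a and Rab25. The forkhead motif GTAAACA was found in 3.65% of all windows and in those of Rab39b and Rab43. The C/EBP-ATF motif TGATGNAA was found in 3.97% of all windows and in those of Rab21 and Rab39b, in the latter 31 bases after the start. A match is only a string of letters in the window.

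Under starvation Rab39b and Rab9 rose and Rab30 fell in both lines. In shRenilla MEFs, 3 of the 46 members rose (Rab39b, Rab36 and Rab9) and 1 fell (Rab30), by edgeR's quasi-likelihood test with Benjamini-Hochberg adjustment over all genes. Those 4 are 8.7% of the members tested, beside 17.0% of all genes tested that passed, 9.69% higher and 7.27% lower. In shBruce MEFs, 3 members rose (Rab39b, Rab9 and Rab14) and 5 fell (Rab30, Rab8b, Rab23, Rab35 and Rab6b). Those 8 are 17.4% of the members tested, beside 23.0% of all genes tested, 12.4% higher and 10.6% lower. In this fit these shares lie below those of all genes, but both moved with the processing. With the trends of length and GC content removed, 11 of 46 members passed in shRenilla and 15 in shBruce MEFs. Of all 12154 genes, 1401 were then higher and 1595 lower in shRenilla, and 1710 and 2221 in shBruce MEFs. There the shares of members and of all genes were close. In fits of each line alone, 17 of 45 and 3 of 44 members passed. These fits called 2681 genes higher and 2332 lower of 11954 in shRenilla, and 552 and 404 of 11787 in shBruce MEFs. The starvation comparisons of the 2 lines share no library, but the joint fit takes its filter, scaling and spread from all 12. The median log2 fold change was −0.04 over the members and −0.01 over all genes in shRenilla MEFs, and 0.02 over both in shBruce MEFs. Without shBruce Starv r1, 7 members passed in shRenilla MEFs and 7 in shBruce MEFs. Without shBruce Starv r3 these counts were 8 and 13, and without shBruce FM r1 5 passed in shBruce MEFs. The shBruce libraries enter the shRenilla comparison only through the shared filter, scaling and spread. Of all 12254 genes tested, 1780 were higher and 1432 lower in shRenilla MEFs without shBruce Starv r1, and 1518 and 1416 in shBruce MEFs. Without shBruce Starv r3 they were 1726 and 1405 in shRenilla and 1974 and 2035 in shBruce MEFs, of 12278. Without shBruce FM r1, 986 genes were higher and 930 lower of 12309 in shBruce MEFs.

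Rab39b rose most. This X-linked gene (chrX:75572046-75578231, minus strand, GRCm38) encodes a RAB that is enriched in neurons and mutated in X-linked intellectual disability with parkinsonism. Rab39b had 97.9, 75.4 and 109 normalized counts in shRenilla FM and 538, 587 and 521 in shRenilla Starv. It had 137, 113 and 126 in shBruce FM and 430, 485 and 540 in shBruce Starv. Every starved library was above every fed library of both lines. In shRenilla MEFs the log2 fold change was 2.54 ± 0.16, which is 5.81-fold (edgeR adjusted p = 7.6e-07, standard error derived from that test). In shBruce MEFs it was 1.96 ± 0.16, with an edgeR adjusted p of 3.7e-06, which is 3.88-fold. These calls held in all 20 alternatives, with log2 fold changes of 2.39 to 2.65 in shRenilla and 1.87 to 2.02 in shBruce MEFs. Here and below, some alternatives left out a library of a group that was not compared. Those could hardly change the fold change, so a call kept or lost there reflects the shared filter, scaling and spread. Of the 4 neuronal markers, Tubb3 had mean normalized counts of 186 in shRenilla FM, 308 in shRenilla Starv, 280 in shBruce FM and 393 in shBruce Starv, while Snap25 was at 0 in all libraries of 3 conditions and Rbfox3 in all of shBruce Starv. The part of other cells in the Rab39b values was not tested. An annotated antisense gene, Gm15063, covers 18.6% of the exon bases of Rab39b, and the strand setting of the counting is not given in the sources used here.

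Rab9 carries mannose 6-phosphate receptors back from late endosomes to the trans-Golgi network, and lies at chrX:166457253-166479867 on the minus strand. Its normalized counts were 486, 412 and 442 in shRenilla FM and 781, 783 and 903 in shRenilla Starv. In shBruce MEFs they were 436, 408 and 486 in FM and 571, 862 and 880 in Starv. The starved libraries lay above the fed ones in both lines, with shBruce Starv r1 the lowest of the starved. The log2 fold changes were 0.88 ± 0.16 (edgeR adjusted p = 0.00233) in shRenilla and 0.80 ± 0.16 (edgeR adjusted p = 0.00338) in shBruce MEFs. Both calls held in all 20 alternatives. Its paralog Rab9b was not tested and had counts of 0 in 10 libraries, 1 in shRenilla Starv r1 and 6 in shBruce Starv r1.

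Rab36, which binds the lysosomal adaptor RILP, rose in shRenilla MEFs from a low level. It had 16.3, 21.7 and 16.1 normalized counts in shRenilla FM, 39.9, 54.5 and 43.8 in shRenilla Starv, 21.2, 18.8 and 21.8 in shBruce FM, and 32.3, 25.6 and 26.9 in shBruce Starv. The fed and starved libraries did not overlap in either line. For shRenilla MEFs the log2 fold change was 1.35 ± 0.22, with an edgeR adjusted p of 0.00121 and the same call in 20 of 20 alternatives. In the mean over both lines it was 0.89 ± 0.17, with an edgeR adjusted p of 0.00109.

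The mean of both starvation responses, which uses all 12 libraries, added rises of Rab38, Rab40b and Rab5b. In it 13 of the 46 members passed, 7 higher and 6 lower, which is 28.3% of the members tested beside 35.2% of all genes tested, 19.2% higher and 16.0% lower. Without shRenilla FM r1, 8 members passed, beside 1956 genes higher and 1603 lower of 12317. Without shRenilla FM r3, 8 passed, beside 1948 genes higher and 1563 lower of 12314. With the trends removed 23 members passed, beside 2401 genes higher and 3084 lower of 12154. The share of members was then not below that of all genes. Rab38 had means of 4.71 ± 1.05 (SD, n = 3) normalized counts in shRenilla FM, 12.1 ± 3.71 in shRenilla Starv, 4.53 ± 2.28 in shBruce FM and 7.84 ± 4.02 in shBruce Starv. Rab38 rose by 1.04 ± 0.37 on the log2 scale (edgeR adjusted p = 0.0418), a call lost in 12 of 18 alternatives. Rab40b, whose protein carries a SOCS box and joins a ubiquitin ligase, had 4.08, 9.43 and 3.58 normalized counts in shRenilla FM, 12.0, 13.0 and 11.4 in shRenilla Starv, 6.37, 3.14 and 2.98 in shBruce FM and 66.6, 3.20 and 13.9 in shBruce Starv. The value of shBruce Starv r1 stood far above the others, and 1 starved library of shBruce lay within the range of the fed ones. Rab40b rose by 1.78 ± 0.60 on the log2 scale (edgeR adjusted p = 0.0345), and without shBruce Starv r1 the value was 1.09 (edgeR adjusted p = 0.0499). In all, 8 of 18 alternatives lost this call.

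Rab5b was the early endosome member that rose in that mean. It had 717, 701 and 723 normalized counts in shRenilla FM, 942, 887 and 842 in shRenilla Starv, 623, 604 and 836 in shBruce FM, and 963, 683 and 946 in shBruce Starv. The groups overlapped in shBruce MEFs only. Rab5b rose by 0.32 ± 0.11 on the log2 scale, with an edgeR adjusted p of 0.0364, and 11 of 19 alternatives lost the call. Rab14, a recycling RAB, had 3679, 3383 and 3557 in shRenilla FM, 3925, 3978 and 3851 in shRenilla Starv, 3596, 3058 and 3567 in shBruce FM, and 6556, 4196 and 3947 in shBruce Starv. The starved libraries were above the fed ones in both lines, with shBruce Starv r1 far above all. In shBruce MEFs its log2 fold change was 0.52 ± 0.17 (edgeR adjusted p = 0.0373) and 0.24 without shBruce Starv r1, where it did not pass (edgeR adjusted p = 0.0959), and 12 of 20 alternatives lost the call. In the mean its log2 fold change was 0.33 (edgeR adjusted p = 0.0405), a call lost in 11 of 19 alternatives, and 0.20 without shBruce Starv r1.

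**Figure D2:**
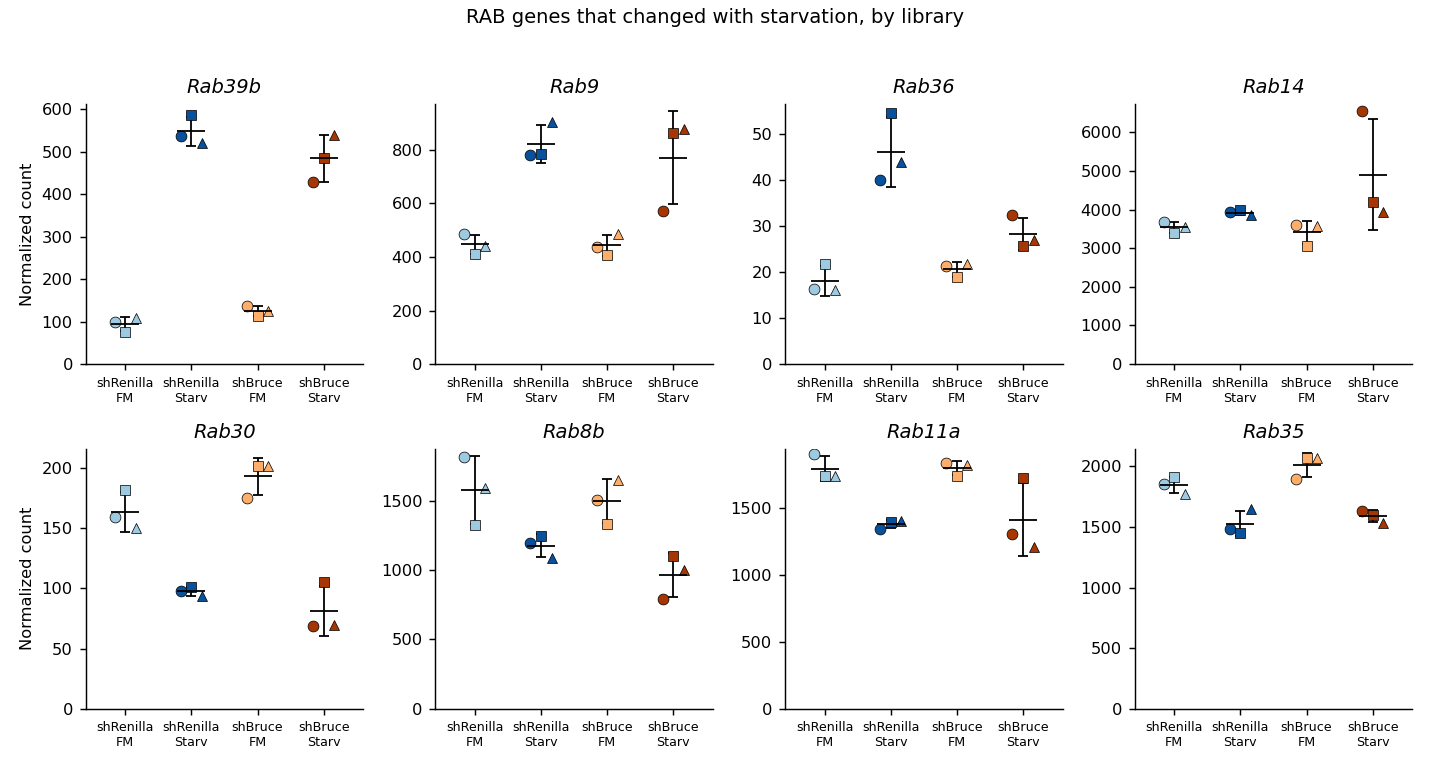
Normalized counts (axis from 0) of 8 RAB genes in each library, with circles, squares and triangles for replicates 1, 2 and 3 and a bar for the mean ± SD of 3 libraries. Starved libraries lie above fed ones for Rab39b, Rab9, Rab36 and Rab14 and below them for Rab30, Rab8b, Rab11a and Rab35, and shBruce Starv r1 is the outlying circle for Rab9 and Rab14.

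Among the Golgi members, Rab30, a RAB of the Golgi apparatus, fell in both lines. It had 159, 182 and 150 normalized counts in shRenilla FM, 98.2, 101 and 93.3 in shRenilla Starv, 175, 202 and 202 in shBruce FM, and 68.6, 105 and 69.7 in shBruce Starv. No starved library reached the lowest fed one. On the log2 scale Rab30 changed by −0.74 ± 0.17 (edgeR adjusted p = 0.00997) in shRenilla and −1.24 ± 0.18 (edgeR adjusted p = 4.1e-04) in shBruce MEFs. Without shRenilla FM r2 the first did not pass, at −0.67 with an edgeR adjusted p of 0.0531. Rab6b, a Golgi isoform enriched in neurons, had 420, 412 and 405 in shRenilla FM, 334, 377 and 327 in shRenilla Starv, 431, 397 and 575 in shBruce FM, and 268, 285 and 412 in shBruce Starv. Groups overlapped in shBruce MEFs and not in shRenilla MEFs. On the log2 scale Rab6b changed by −0.53 ± 0.18 (edgeR adjusted p = 0.0484) in shBruce MEFs, a call lost in 12 of 20 alternatives. Of the 10 Golgi and ER-Golgi members tested, the other 8 passed in neither line, with a median log2 fold change over the 10 of −0.11 in shRenilla and −0.08 in shBruce MEFs.

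Among the recycling members, Rab35 and Rab11a fell in the mean of both lines. Rab35, which returns cargo to the plasma membrane, had 1853, 1912 and 1775 normalized counts in shRenilla FM, 1483, 1454 and 1649 in shRenilla Starv, 1898, 2067 and 2072 in shBruce FM, and 1633, 1600 and 1536 in shBruce Starv. Groups did not overlap in either line. On the log2 scale Rab35 changed by −0.34 ± 0.10 (edgeR adjusted p = 0.0268) in shBruce MEFs, a call lost in 5 of 20 alternatives, and −0.31 ± 0.07 (edgeR adjusted p = 0.00454) in the mean. Rab11a, the main RAB of the recycling endosome, had 1905, 1743 and 1738 in shRenilla FM, 1345, 1396 and 1400 in shRenilla Starv, 1839, 1738 and 1819 in shBruce FM, and 1306, 1721 and 1211 in shBruce Starv. The starved libraries were all lower, with shBruce Starv r2 close to the fed ones. Rab11a fell in the mean by 0.36 ± 0.09 on the log2 scale (edgeR adjusted p = 0.00714), and in shRenilla MEFs its log2 fold change of −0.38 ± 0.13 did not pass (edgeR adjusted p = 0.0584).

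Rab8b and Rab23 also fell. Rab8b, which moves vesicles to the plasma membrane with its paralog Rab8a, had 1818, 1329 and 1596 normalized counts in shRenilla FM, 1197, 1249 and 1085 in shRenilla Starv, 1511, 1337 and 1653 in shBruce FM, and 789, 1100 and 999 in shBruce Starv. Groups did not overlap in either line. For Rab8b the log2 fold change was −0.64 ± 0.15 (edgeR adjusted p = 0.00926) in shBruce MEFs and −0.43 ± 0.15 (edgeR adjusted p = 0.0699) in shRenilla MEFs. Rab23, a negative regulator of Hedgehog signalling at the cilium, had 1235, 1151 and 1216 in shRenilla FM, 1050, 1064 and 1014 in shRenilla Starv, 1133, 1051 and 1212 in shBruce FM, and 626, 839 and 935 in shBruce Starv. All starved libraries were below the fed ones of their line, and shBruce Starv r1 was lowest. In shBruce MEFs its log2 fold change was −0.50 ± 0.14 (edgeR adjusted p = 0.0200), a call lost in 3 of 20 alternatives. In the mean over both lines, the log2 fold change was −0.53 ± 0.11 for Rab8b and −0.35 ± 0.10 for Rab23, with edgeR adjusted p of 0.0019 and 0.0129, and both passed in 19 of 19 alternatives.

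**Figure D3:**
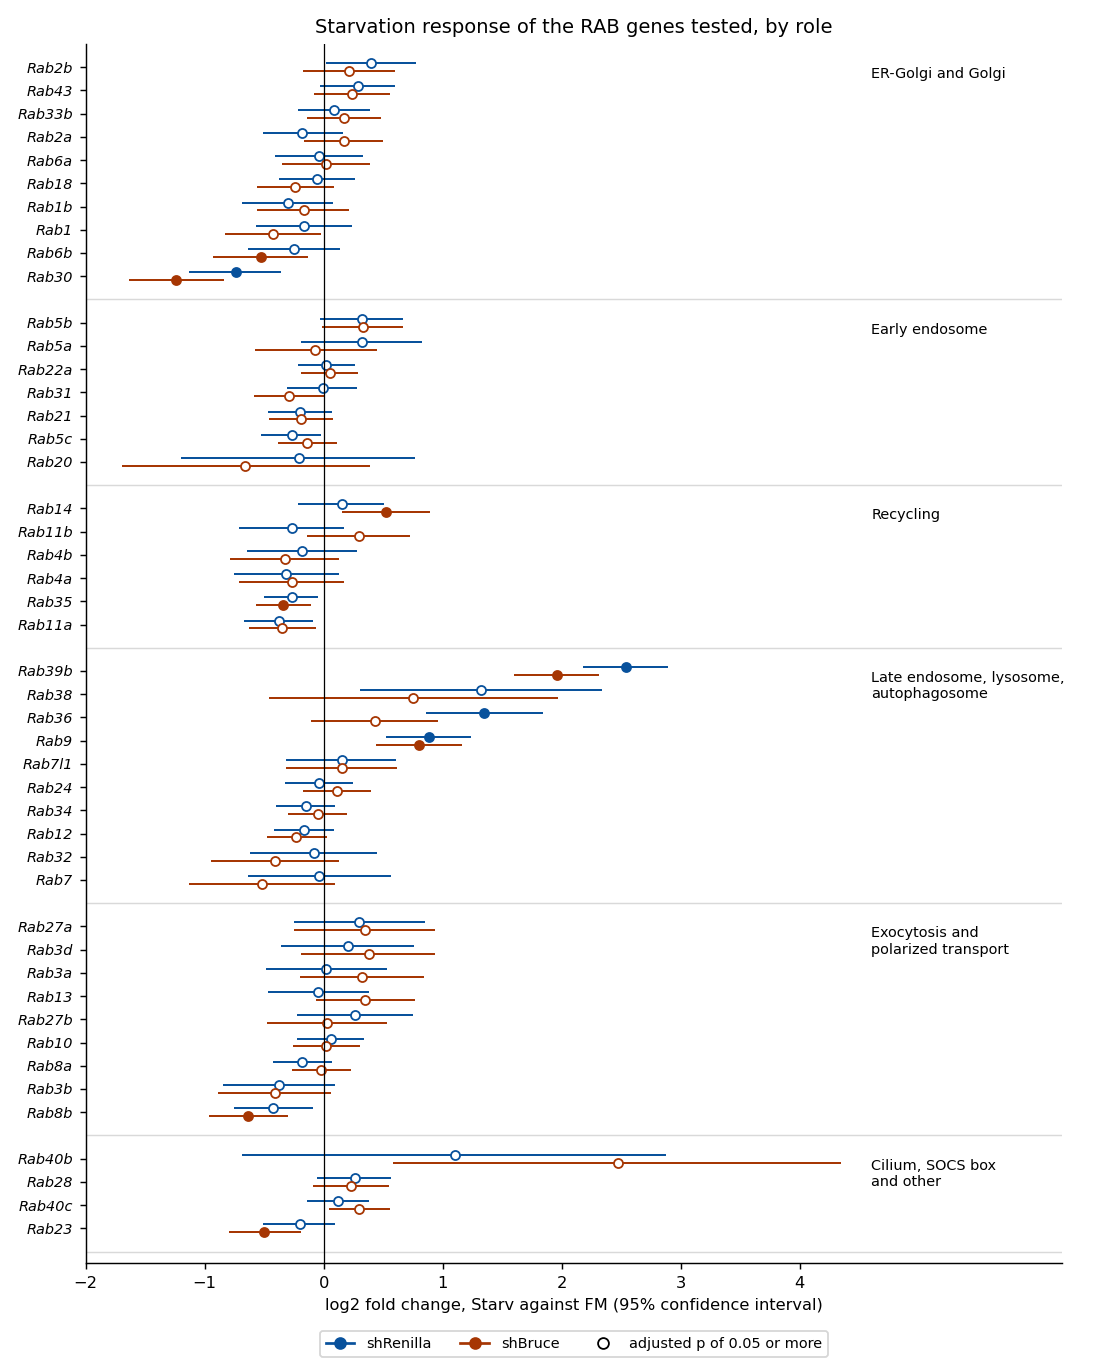
log2 fold change of Starv against FM with its 95% confidence interval for the 46 RAB genes tested, in shRenilla (blue) and shBruce MEFs (brown), grouped by role. Filled points passed at an adjusted p under 0.05, and Rab39b stands apart at 2.54 and 1.96, while most intervals include 0.

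The interaction tests whether the starvation response differed between the lines. In it 0 of 46 members passed edgeR's test, beside 0% of all genes tested. At an unadjusted p under 0.05 there were 2 members, beside 474 of all 12154 genes. DESeq2 and limma-voom also called 0 members and 0 genes. The largest differences over their standard error were those of Rab36 (log2 −0.92 ± 0.33), Rab39b (−0.58 ± 0.22), Rab30 (−0.50 ± 0.25), Rab11b (0.57 ± 0.28), Rab14 (0.38 ± 0.23) and Rab2a (0.34 ± 0.21), each with an edgeR adjusted p of 0.806. The 95% interval was −1.64 to −0.20 for Rab36 and −1.06 to −0.11 for Rab39b. Without shBruce Starv r1 the log2 values of Rab11b, Rab14 and Rab2a were 0.24, 0.08 and 0.16, and with the trends removed that of Rab30 was −0.25. Rab2a had 2977, 2766 and 2659 normalized counts in shRenilla FM, 2352, 2427 and 2653 in shRenilla Starv, 3192, 2585 and 3123 in shBruce FM, and 4011, 3410 and 2575 in shBruce Starv. The shBruce groups overlapped.

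The lines were compared in each medium and in the mean of both. In FM, 0 of 46 members passed edgeR's test, beside 0% of all genes tested. At an unadjusted p under 0.05 there were 8 members, beside 1750 of all 12154 genes. DESeq2 called 0 members, beside 23 genes higher and 48 lower of 12154, and limma-voom called 0 members and 0 genes. A fit of the FM libraries alone called 1 of 44 members, Rab4b, beside 221 genes higher and 376 lower of 11680. The 6 members with the largest log2 fold change over its standard error were Rab4b (0.65 ± 0.21), Rab21 (−0.32 ± 0.12), Rab39b (0.41 ± 0.16), Rab34 (0.28 ± 0.11), Rab3b (0.53 ± 0.21) and Rab4a (0.49 ± 0.20). Their edgeR adjusted p ran from 0.297 to 0.314. Without shBruce FM r3 the log2 value of Rab3b was 0.21, and without shRenilla FM r2 that of Rab39b was 0.27. With the trends removed the values were 0.03 for Rab34, −0.06 for Rab21, 0.36 for Rab4b, 0.32 for Rab4a and 0.62 for Rab39b.

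After starvation, 7 of 46 members passed, 4 higher and 3 lower in shBruce MEFs. They are 15.2% of the members tested, beside 23.9% of all genes tested, 12.8% higher and 11.2% lower. Rab11b, Rab13, Rab24 and Rab34 were higher, and Rab5a, Rab36 and Rab31 were lower. This count moved with single libraries, and so did that of all genes. The count of members was 0 without shRenilla Starv r1, without shRenilla Starv r2 and without shBruce Starv r2. It was 1 without shBruce Starv r1, 4 without shRenilla FM r1 or r3, and 21 without shBruce Starv r3. Of all genes, 0 passed without shRenilla Starv r1 or r2, and 5 were higher and 10 lower without shBruce Starv r2. Without shBruce Starv r1, 226 genes were higher and 347 lower of 12254. Without shBruce Starv r3, 2727 were higher and 3008 lower of 12278 genes. A fit of the starved libraries alone called 0 members and 0 of 11969 genes. DESeq2 called 14 members, beside 2000 genes higher and 1764 lower of 12154. With the trends of length and GC content removed 3 passed, beside 538 genes higher and 306 lower. In the mean of both media, 14 of 46 members passed, 9 higher and 5 lower, which is 30.4% of the members tested beside 32.1% of all genes tested, 16.3% higher and 15.7% lower. That count was 4 without shRenilla FM r3 or shRenilla Starv r2, 6 without shRenilla FM r1 and 7 without shRenilla Starv r1. It was 9 without shBruce FM r2, 24 without shBruce Starv r3, and 6 with the trends removed. Of all genes, 581 were higher and 815 lower without shRenilla FM r3, and 2937 and 3144 without shBruce Starv r3. With the trends removed, 895 genes were higher and 573 lower.

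Rab5a, the central RAB of early endosome fusion, was lower in shBruce MEFs, while its paralog Rab5c was higher in the mean. The gene lies at chr17:53479234-53507680 on the plus strand. Rab5a had 879, 647 and 867 normalized counts in shRenilla FM and 986, 1059 and 947 in shRenilla Starv. It had 602, 545 and 560 in shBruce FM and 311, 552 and 752 in shBruce Starv. All shBruce libraries were below the shRenilla libraries of the same medium, and shBruce Starv r1 was lowest. Its log2 fold change was −0.88 ± 0.23 (edgeR adjusted p = 0.0268) in Starv, lost in 4 of 20 alternatives. In the mean it was −0.68 ± 0.17 (edgeR adjusted p = 0.0137), and the exact stratified permutation p was 0.005, the smallest it can give. Any member whose lines are separated in the same direction in both media gets this p, among them Rab24 and Rab34 below. In the mean Rab5a passed in 19 of 19 alternatives, with log2 fold changes of −0.84 to −0.55. Rab5c had means of 3296 ± 203 (SD, n = 3) normalized counts in shRenilla FM, 2725 ± 231 in shRenilla Starv, 3672 ± 188 in shBruce FM and 3339 ± 280 in shBruce Starv. It was higher in shBruce MEFs by 0.22 ± 0.08 (log2, edgeR adjusted p = 0.0456), and this was −0.03 with the trends removed. For Rab5b the line difference did not pass, at −0.05 ± 0.11 (log2, 95% interval −0.29 to 0.19).

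Other early endosome members were lower as well. Rab31, which acts from the trans-Golgi network to endosomes, had 2625, 2594 and 2577 normalized counts in shRenilla FM, 2634, 2613 and 2471 in shRenilla Starv, 2474, 2459 and 2096 in shBruce FM, and 1568, 1882 and 2297 in shBruce Starv. Its lines did not overlap in either medium. In Starv its log2 fold change was −0.42 ± 0.13 (edgeR adjusted p = 0.0388), lost in 13 of 20 alternatives. Rab21, a RAB of integrin traffic, had 1425, 1130 and 1372 in shRenilla FM, 1128, 1153 and 1140 in shRenilla Starv, 1082, 941 and 1121 in shBruce FM, and 852, 979 and 917 in shBruce Starv. Again no shBruce library reached the shRenilla libraries of its medium. In the mean its log2 fold change was −0.32 ± 0.09 (edgeR adjusted p = 0.0181) and 0.02 with the trends removed.

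The recycling RABs Rab11b, Rab4a and Rab4b were higher in shBruce MEFs in the mean, where 16.3% of all genes tested were higher, and of these Rab11b alone passed with the trends removed. Rab11b, close in sequence to Rab11a and at chr17:33742484-33760530 on the minus strand, had 1024, 1080 and 1026 normalized counts in shRenilla FM and 867, 820 and 912 in shRenilla Starv. It had 1275, 1205 and 1218 in shBruce FM and 2087, 1494 and 978 in shBruce Starv. Lines did not overlap in either medium, and the shBruce Starv libraries spread widely, from 978 to 2087. Rab11b differed by 0.81 ± 0.20 on the log2 scale in Starv (edgeR adjusted p = 0.0240), by 0.50 without shBruce Starv r1, where it did not pass (edgeR adjusted p = 0.0587), and by 0.52 ± 0.14 in the mean (edgeR adjusted p = 0.0180). With the trends removed, Rab11b passed in Starv at 1.17 (log2, edgeR adjusted p = 0.0354), and 5 of 20 alternatives lost this call. For this gene the union of exons, 6109 bp, is that of its longest transcript, and the shorter annotated one has 1544 bp. The value with the trends removed depends on the length used, and the shorter one was not tested. Rab11a did not pass in the mean, at 0.02 ± 0.09 (log2, 95% interval −0.18 to 0.21).

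Rab4a and Rab4b drive fast recycling from early endosomes. Rab4b had 273, 306 and 272 normalized counts in shRenilla FM, 246, 208 and 296 in shRenilla Starv, 361, 461 and 515 in shBruce FM, and 468, 349 and 255 in shBruce Starv. Rab4a had 125, 141 and 108 in shRenilla FM, 92.6, 103 and 104 in shRenilla Starv, 190, 155 and 180 in shBruce FM, and 184, 155 and 102 in shBruce Starv. Both genes were separated by line in FM and overlapped in Starv, where shBruce Starv r3 was the low library. In the mean, the log2 fold change was 0.58 ± 0.15 for Rab4b and 0.51 ± 0.14 for Rab4a, with edgeR adjusted p of 0.0163 and 0.0193. With the trends removed they were 0.13 and 0.25, and neither passed. The gene Gm21983 covers 85.2% of the exon bases of Rab4b on the same strand, so its counts are uncertain.

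**Figure D4:**
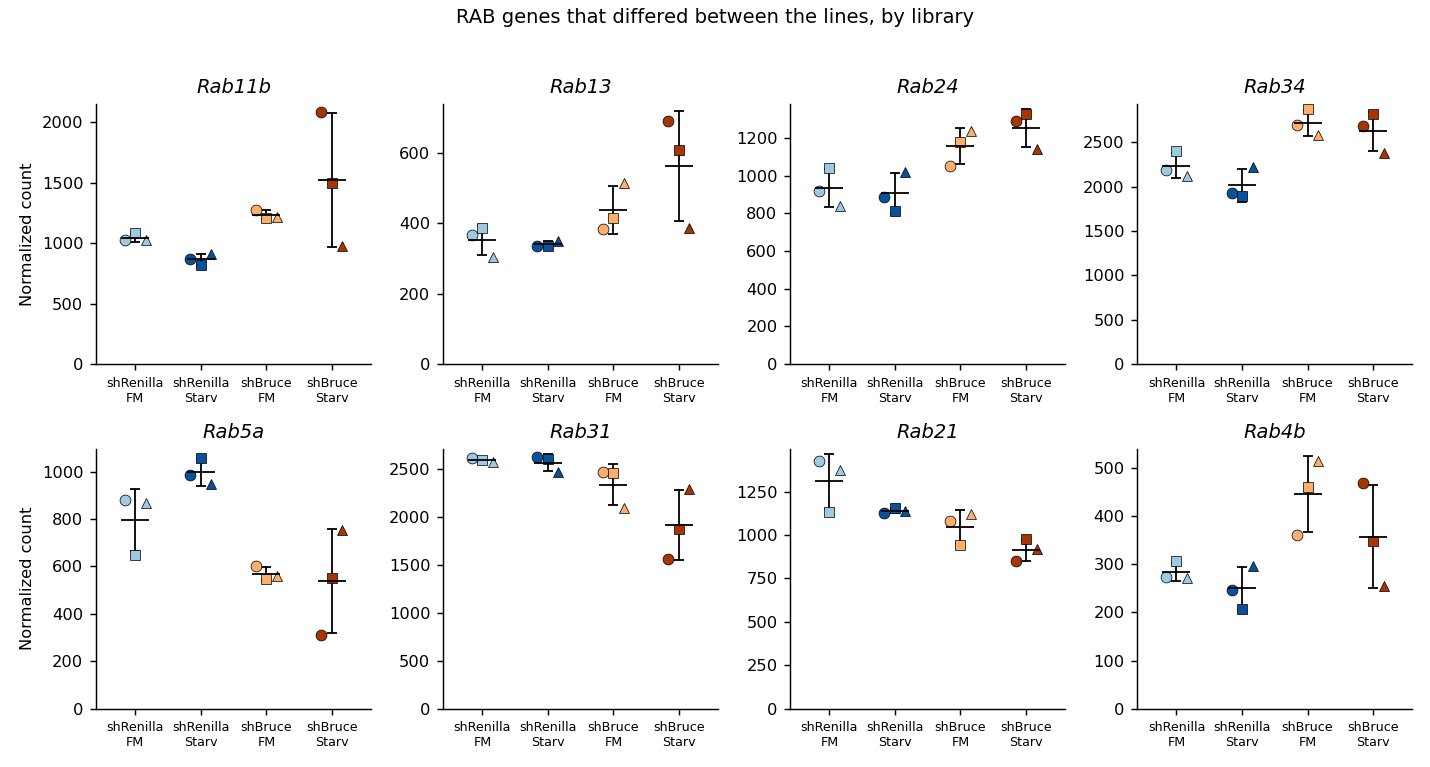
Normalized counts (axis from 0) of 8 RAB genes in each library, with circles, squares and triangles for replicates 1, 2 and 3 and a bar for the mean ± SD of 3 libraries. The shBruce libraries lie above shRenilla for Rab24 and Rab34 and below it for Rab5a, Rab31 and Rab21 in both media, and shBruce Starv spreads from 978 to 2087 for Rab11b.

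Of the 10 late endosome, lysosome and autophagosome members tested, Rab24 and Rab34 were higher in Starv and in the mean. Rab24, an atypical RAB found on autophagosomes, had 920, 1042 and 838 normalized counts in shRenilla FM, 884, 810 and 1021 in shRenilla Starv, 1053, 1179 and 1237 in shBruce FM, and 1290, 1327 and 1140 in shBruce Starv. Rab34, a RILP-binding RAB needed for cilium formation, had 2186, 2399 and 2125 in shRenilla FM, 1925, 1894 and 2224 in shRenilla Starv, 2698, 2880 and 2581 in shBruce FM, and 2681, 2816 and 2384 in shBruce Starv. Lines did not overlap for either gene in either medium. The log2 fold changes in Starv were 0.47 ± 0.13 for Rab24 and 0.38 ± 0.11 for Rab34, with edgeR adjusted p of 0.0285 and 0.0320. With the trends removed they were −0.06 and −0.09, and 6 of 20 alternatives for Rab24 and 10 of 20 for Rab34 did not keep the call. The gene Prelid1 on the opposite strand covers 66.4% of the exon bases of Rab24. Rab36, whose library values stand with the starvation results, was lower in shBruce MEFs in Starv (log2 −0.72 ± 0.22, edgeR adjusted p = 0.0359), and 12 of 20 alternatives lost this call. Rab7 did not pass, at −0.61 in Starv, with 194, 450 and 642 normalized counts in shBruce Starv against 697, 677 and 618 in shRenilla Starv. Without shBruce Starv r3, Rab7 passed as lower in Starv and in the mean.

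Among exocytic and Golgi members, Rab13, Rab3b and Rab1b were higher and Rab10 and Rab33b lower. Rab13, a RAB of cell junctions, had 366, 386 and 305 normalized counts in shRenilla FM, 335, 337 and 350 in shRenilla Starv, 385, 416 and 516 in shBruce FM, and 690, 609 and 388 in shBruce Starv. The lines overlapped by 1 library in FM and not in Starv. In Starv its log2 fold change was 0.72 ± 0.19 (edgeR adjusted p = 0.0272), lost in 6 of 20 alternatives. Rab3b, a RAB of regulated secretion, had 216, 238 and 218 in shRenilla FM, 154, 183 and 180 in shRenilla Starv, 260, 258 and 453 in shBruce FM, and 192, 250 and 282 in shBruce Starv. All its shBruce libraries were above the shRenilla libraries of the same medium. Rab3b differed by 0.52 ± 0.15 on the log2 scale in the mean (edgeR adjusted p = 0.0245), lost in 4 of 19 alternatives.

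Rab1b, which acts from the ER to the Golgi, had 2770, 3082 and 2727 normalized counts in shRenilla FM, 2198, 2215 and 2553 in shRenilla Starv, 3375, 3878 and 3739 in shBruce FM, and 4126, 3358 and 2283 in shBruce Starv. For Rab1b the log2 fold change in the mean was 0.42 ± 0.12 (edgeR adjusted p = 0.0234), and the lines overlapped in Starv through shBruce Starv r3. With the trends removed it was 0.09 and did not pass (edgeR adjusted p = 0.433), and 6 of 19 alternatives lost the call. Rab33b, a Golgi RAB that binds the autophagy protein ATG16L1, had 427, 380 and 444 in shRenilla FM, 477, 437 and 414 in shRenilla Starv, 334, 281 and 373 in shBruce FM, and 329, 386 and 395 in shBruce Starv. Lines did not overlap in either medium, and its log2 fold change in the mean was −0.30 ± 0.10 (edgeR adjusted p = 0.0353). This call was lost in 10 of 19 alternatives, among them the replicate block (edgeR adjusted p = 0.0502) and the trends removed, where the value was −0.13. Rab10, which delivers vesicles to the plasma membrane, had means of 2340 ± 214 (SD, n = 3), 2433 ± 181, 1982 ± 83.7 and 2013 ± 293 in shRenilla FM, shRenilla Starv, shBruce FM and shBruce Starv. Rab10 differed in the mean by a log2 fold change of −0.26 ± 0.09 (edgeR adjusted p = 0.0440), lost in 12 of 19 alternatives.

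The line differences of the members went with exon length. The 9 members higher in shBruce MEFs in the mean had a median exon length of 1767 bp, the 5 lower ones 3513 bp and the 46 members tested 2866 bp. Spearman's rho between exon length and the log2 fold change in the mean was −0.42 across the 46 members and −0.56 across 12052 genes, all measured in the same 12 libraries. It is a description across genes, which are not independent. For the mean starvation response it was −0.11 across members and 0.03 across all genes. With the trends removed, Rab11b, Rab22a, Rab39b, Rab3b and Rab8a were higher and Rab5a was lower in the mean. Thus 3 members (Rab11b, Rab3b and Rab5a) passed with and without the correction, which for Rab11b depends on the transcript length used. The part of length in these differences was not otherwise tested.

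**Figure D5:**
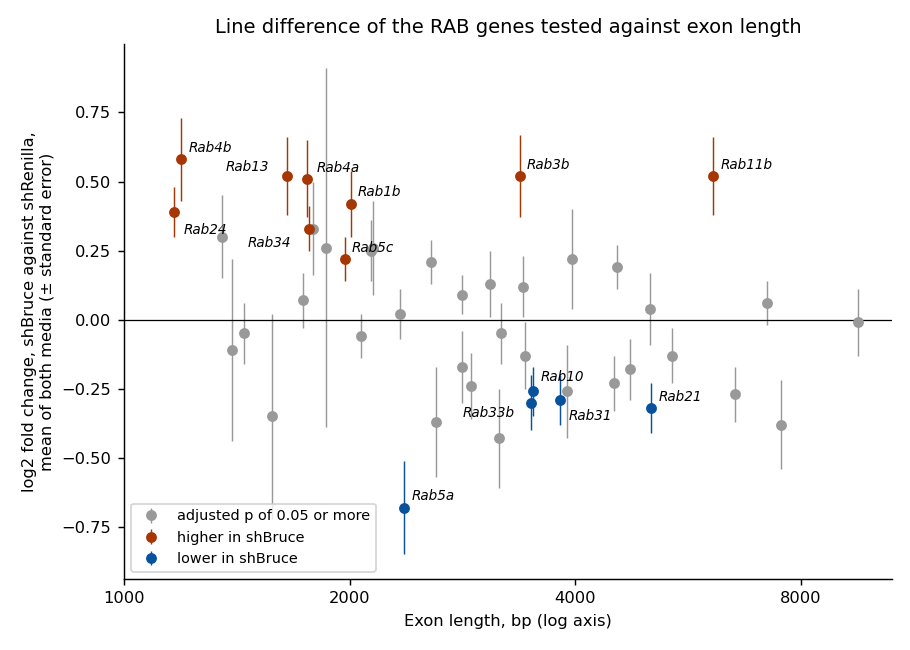
Exon length in bp (log axis) against the log2 fold change of shBruce over shRenilla in the mean of both media, with its standard error, for the 46 RAB genes tested. Of the 9 members higher in shBruce, 7 have exons of 2007 bp or less, and the 5 lower ones have 2366 to 5047 bp.

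The genes that regulate or read RABs were counted from lists of 7 prenylation and recycling genes, 38 GEFs, 36 GAPs and 45 effectors, of which 114 were tested. Under starvation, 11 rose and 4 fell in shRenilla MEFs (13.2% of those tested, beside 17.0% of all genes), and 8 rose and 13 fell in shBruce MEFs (18.4%, beside 23.0%). The first count, 15 in all, was 5 to 7 without shRenilla FM r1, r2 or r3 or shRenilla Starv r1 or r2, 29 without shBruce Starv r1 and 28 without shBruce Starv r3, and the second, 21 in all, was 12 without shBruce FM r2. In the mean starvation response 19 rose and 17 fell, 31.6% of those tested beside 35.2% of all genes. Among the GEFs, 6 of 35 rose and 9 fell. Rab3il1, a GEF for Rab8, rose most clearly, from a mean of 61.1 to 189 normalized counts in shRenilla and from 51.2 to 205 in shBruce MEFs (mean log2 fold change 1.82 ± 0.15, edgeR adjusted p = 1.4e-06). Rin2, a GEF for Rab5, rose by 1.00 ± 0.16 and Dennd2c by 0.95 ± 0.16 on the log2 scale, and Dennd5a (−0.48 ± 0.09), Sbf1 (−0.54 ± 0.10) and Rin1 (−0.60 ± 0.12) fell, all in the mean. Among the GAPs, 4 of 36 rose and 2 fell, with Tbc1d17 (0.71 ± 0.09) and Tbc1d10a (−0.75 ± 0.11) the clearest. Of 36 effectors tested, 9 rose and 4 fell, among them Plin3 (0.70 ± 0.14), which binds Rab9, and Bicd2 (−0.79 ± 0.08), a dynein adaptor that binds Rab6.

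Between the lines, 4 of the 114 genes were higher and 27 lower in shBruce MEFs after starvation, 27.2% beside 23.9% of all genes, with a median log2 fold change of −0.21. In the mean, 12 were higher and 34 lower, 40.4% beside 32.1% of all genes, with a median of −0.16. Chm, the Rab escort protein that presents RABs for prenylation, had means of 544 and 630 normalized counts in shRenilla FM and Starv and of 327 and 324 in shBruce FM and Starv (log2 −0.84 ± 0.17 in the mean, edgeR adjusted p = 0.0103). Its paralog Chml was lower too (−0.57 ± 0.14), and Rabac1 (0.54 ± 0.15) and Rabggta (0.33 ± 0.09) were higher. The effector Rab11fip2, which binds Rab11, had means of 540, 809, 362 and 463 in shRenilla FM, shRenilla Starv, shBruce FM and shBruce Starv (log2 −0.69 ± 0.11 in the mean, edgeR adjusted p = 0.00874). These line counts moved with the libraries and the length correction, as did those of all genes. The count of 31 in Starv was 0 without shRenilla Starv r1, shRenilla Starv r2 or shBruce Starv r2, 6 without shBruce Starv r1, 20 and 19 without shRenilla FM r1 and r3, 59 without shBruce Starv r3, and 1 with the trends removed. The count of 46 in the mean was 19 and 14 without shRenilla FM r1 and r3, 15 and 13 without shRenilla Starv r1 and r2, 28 without shBruce FM r2, and 11 with the trends removed. In FM, 0 of the 114 passed edgeR's test, DESeq2's or limma-voom's. Of all 12154 genes, edgeR and limma-voom called 0, and DESeq2 called 23 higher and 48 lower. An unadjusted p under 0.05 was found for 23 of the 114, beside 1750 of all genes. In the interaction these 3 tools called 0 of the 114 and 0 of all genes. There, 4 of the 114 had an unadjusted p under 0.05, beside 474 of all genes.

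Of the 46 tested members, 19 passed in none of the 7 comparisons. Their log2 fold changes ran from −0.21 to 0.40 for starvation in shRenilla MEFs, from −0.66 to 0.38 in shBruce MEFs, from −0.45 to 0.42 between the lines in FM and from −0.61 to 0.48 in Starv. They include Rab7, the late endosome and lysosome RAB, with log2 fold changes under starvation of −0.04 in shRenilla and −0.52 in shBruce MEFs, and Rab12 and Rab32. Of the 12 members that did not pass the filter, Rab19 and Rab39 had 0 counts in all 12 libraries, which allows up to 3 counts of 178822694, or 0.0168 CPM, for counting error only. The other 10 (Rab15, Rab17, Rab25, Rab26, Rab33a, Rab37, Rab3c, Rab42, Rab44 and Rab9b) had 1 to 48 counts in all. The highest count of any of them in 1 library was 7, and Rab33a and Rab9b had their highest, 6 each, in shBruce Starv r1.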

How the data were processed

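RNA was sequenced from 12 libraries, 3 in each of 4 conditions. The authors enriched poly(A) RNA, removed rRNA reads, mapped to mm10 with STAR 2.4.0d and counted reads per gene with HTSeq 0.5.4p3. The annotation and strand setting are not given in the sources used here. The deposited values are raw counts, without normalization, and all columns were used. Dates stood in place of 27 gene symbols (0.296% of counts).

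One joint model of the 12 libraries, with the 4 conditions as its terms, was made in edgeR (version 4.0.16, under R 4.3.3) after filterByExpr and TMM scaling, and tested by the two-sided quasi-likelihood test with Benjamini-Hochberg adjustment over all 12154 genes at 0.05. The comparisons were starvation in each line and in their mean, line in each medium and in their mean, and the interaction. Standard errors of log2 fold changes were derived so that the squared ratio of fold change to standard error equals the test's F statistic. Confidence intervals at 95% were built from them, so both restate that test. Exact permutation tests on normalized counts (Python 3.11.15, scipy 1.17.1) cannot go below 0.1 for 3 against 3. Replicates differed beyond counting error. Alternatives were DESeq2 1.42.0, its size factors in edgeR, limma-voom 3.58.1, 2 other filters (none, or at least 10 counts in every library), the compared groups alone, a replicate block, spline trends (4 degrees of freedom) of exon length and GC content removed over 12052 genes, and each library left out. Gene positions and exon lengths (union of exons) came from GENCODE M21 on GRCm38, promoters from RefSeq. The processing was tested on simulated counts.

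The members and gene lists were chosen with earlier results of these data known. Values are given in every library for Rab39b, Rab9, Rab5a, Rab11b and the 24 members of smallest adjusted p among those that passed in any comparison, and for the members of largest fold change over standard error where fewer than 6 passed. At most 3 higher and 3 lower genes of each regulator list are named, by adjusted p. Figures were drawn with matplotlib 3.10.9. One item is not reported here.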

Additional observations from a re-analysis of the deposited data

How the results depend on the processing

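Counts are of RAB genes that passed, beside 4, 8, 0, 7, 0, 13 and 14 for starvation in shRenilla, starvation in shBruce, line in FM, line in Starv, the interaction, mean starvation and mean line difference. With the length and GC trends removed they were 11, 15, 0, 3, 0, 23 and 6. Of all 12154 genes, 1401 were then higher and 1595 lower for starvation in shRenilla, and 1710 and 2221 in shBruce. They were 0 and 2 for line in FM, 538 and 306 for line in Starv, and 0 and 0 for the interaction. For mean starvation they were 2401 and 3084, and for the mean line difference 895 and 573. In fits of the compared groups alone the first 4 were 17, 3, 1 and 0. Those fits called 2681 genes higher and 2332 lower of 11954, and 552 and 404 of 11787, for starvation in shRenilla and shBruce. For line in FM they called 221 higher and 376 lower of 11680, and for line in Starv 0 of 11969. DESeq2 called 7 for starvation in shRenilla, beside 1363 genes higher and 1201 lower of 12154. For line in Starv DESeq2 called 14, beside 2000 genes higher and 1764 lower. With each library left out in turn the counts ran from 3 to 8 for starvation in shRenilla and 5 to 13 for starvation in shBruce. They ran from 0 to 21 for line in Starv, 8 to 17 for mean starvation and 4 to 24 for the mean line difference. Counts of all genes moved as well, for line in Starv from 0 without shRenilla Starv r1 to 2727 higher and 3008 lower without shBruce Starv r3. Directions reversed with the trends removed for Rab24 (−0.06) and Rab34 (−0.09) in Starv and for Rab21 (0.02), Rab24 (−0.01), Rab34 (−0.03) and Rab5c (−0.03) in the mean line difference, and the cause was not tested beyond that correction. The replicate numbers did not pair the libraries: of 18 same-numbered pairs, 5 had deviations correlated over 0.1 (range −0.456 to 0.347), and 4 of 12 libraries correlated best with their own number. A fit with the replicate number as a block called 4 members for line in Starv and otherwise 4, 7, 0, 0, 13 and 10 in the order above. Of all 12154 genes, that fit called 892 higher and 1040 lower for line in Starv, and 0 for line in FM and the interaction. It called 1043 and 727 for starvation in shRenilla, and 1316 and 1134 in shBruce. For mean starvation it called 2138 and 1750, and for the mean line difference 1561 and 1719. Depth limits the members of lowest counts, among them Rab38 and Rab40b.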
